A study of Mus musculus with 4 samples.

Results

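Claudins are the membrane proteins that form the strands of the tight junction, the belt that seals neighbouring epithelial cells to each other. The account covers 10 of them, Cldn1, Cldn2, Cldn3, Cldn4, Cldn6, Cldn7, Cldn9, Cldn12, Cldn14 and Cldn15, taken by symbol from 54838 gene rows that include 35 claudin rows in all. The 10 were chosen by symbol with the counts, TPM and knockdown contrast of these same libraries known, so the claudin differences below are a description, and a p-value only places a gene in the fit over all genes. RNA sequencing was done on Hepa1-6, a mouse hepatocellular carcinoma line, in 4 libraries of total RNA. The 2 control libraries carry the shRNA named shNC and are given as Setdb1 wild type, and the 2 knockdown libraries carry the shRNA named shSet and are given as Setdb1 knockdown. The series describes the cells as subclones of the line without saying how many clones or hairpins were used, and no label ties the libraries to separate cultures. The p-values therefore rest on the spread among 4 libraries, and that spread may be technical. The question is how the claudin genes differ when Setdb1, a methyltransferase of lysine 9 on histone H3, is reduced.

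Each claudin crosses the membrane repeatedly, and its outer loops meet those of claudins on the next cell, while scaffold proteins such as ZO-1 (Tjp1) hold most claudins from the inside. The mixture of claudins sets what passes between the cells. Cldn1, Cldn3 and Cldn14 are known as sealing claudins, Cldn2 and Cldn15 form pores for small cations and Cldn2 also for water, and Cldn4 and Cldn7 are linked to anion selectivity. In the liver, tight junctions between hepatocytes close off the bile canaliculus from the blood, and CLDN1 is also known as an entry factor of hepatitis C virus.

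The promoters of the 5 claudins with enough reads to test are shown first, because these genes differ in level and in direction. RefSeq starts on GRCm38.p6 were found for 9 of the 10 claudins. Each line gives the bases before the start, 5′ to 3′ on the gene's own strand and outside any annotated exon, with matches to 7 short motifs in capitals.
Cldn1: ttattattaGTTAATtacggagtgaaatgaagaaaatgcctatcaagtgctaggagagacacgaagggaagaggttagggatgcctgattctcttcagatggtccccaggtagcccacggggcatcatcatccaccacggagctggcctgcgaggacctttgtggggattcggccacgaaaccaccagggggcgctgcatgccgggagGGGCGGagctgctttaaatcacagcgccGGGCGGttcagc
Cldn2: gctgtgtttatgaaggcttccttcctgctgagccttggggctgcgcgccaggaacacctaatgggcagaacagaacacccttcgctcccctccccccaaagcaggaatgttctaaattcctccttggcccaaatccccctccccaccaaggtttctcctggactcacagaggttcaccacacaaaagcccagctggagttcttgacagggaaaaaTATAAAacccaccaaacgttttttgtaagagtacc
Cldn3: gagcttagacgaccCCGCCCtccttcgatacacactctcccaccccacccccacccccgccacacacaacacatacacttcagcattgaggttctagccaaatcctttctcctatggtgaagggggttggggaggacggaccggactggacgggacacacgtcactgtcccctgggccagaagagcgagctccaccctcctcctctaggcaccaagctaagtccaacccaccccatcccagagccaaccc
Cldn4: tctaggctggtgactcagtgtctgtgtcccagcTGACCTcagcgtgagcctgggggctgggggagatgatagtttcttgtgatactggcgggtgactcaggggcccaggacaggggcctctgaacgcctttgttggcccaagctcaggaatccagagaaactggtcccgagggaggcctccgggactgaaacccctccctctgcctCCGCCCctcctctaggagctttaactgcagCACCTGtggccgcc
Cldn12: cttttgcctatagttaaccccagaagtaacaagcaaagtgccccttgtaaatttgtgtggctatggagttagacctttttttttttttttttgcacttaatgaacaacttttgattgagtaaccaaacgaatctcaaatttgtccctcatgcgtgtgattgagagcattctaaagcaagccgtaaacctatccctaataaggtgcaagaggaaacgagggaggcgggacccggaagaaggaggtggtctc
The motifs, searched on both strands in the 250 bases before the start, were TATAAA (the core promoter box of that name), GGGCGG (the GC box of SP and KLF factors), CAGGTG (the E-box of SNAI and ZEB factors), GTTAAT (a half-site of HNF1), TTTATNG (a site of CDX factors), AGATAA (a site of GATA factors) and AGGTCA (a half-site of nuclear receptors). No matches overlapped in the printed stretches. The Cldn2 window (chrX:139800558-139800807, plus strand) held TATAAA 30 bases before the start, a motif found in 12.4% of 32851 promoter windows of that length. The Cldn4 window (chr5:134946935-134947184, minus strand) held GGGCGG, which 32.7% of all windows hold, with CAGGTG (17.2% of windows) and AGGTCA (14.0% of windows). The Cldn3 window (chr5:134985964-134986213, plus strand) held GGGCGG once. The Cldn1 window (chr16:26371842-26372089, minus strand) held GGGCGG at 2 places and GTTAAT once, the latter found in 6.43% of windows. The Cldn12 window (chr5:5514977-5515226, minus strand), before the outermost of its RefSeq starts, held none of the 7, while GGGCGG stood in the windows of its other RefSeq starts, in bases that are exonic for other transcripts. GC content ran from 42.0% in Cldn12 through 52.0% in Cldn2 and 55.6% in Cldn1 to 60.8% in Cldn3 and 62.0% in Cldn4, against a median of 52.4% over all windows. A match is a stretch of letters and was not tested as a binding site.

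The claudins are spread over several chromosomes. Cldn3 (chromosome 5, 134986214 to 134987472) and Cldn4 (chromosome 5, 134945119 to 134946934) are single-exon genes on opposite strands with 39280 bases between them. Cldn6 (chromosome 17, 23679249 to 23682446) and Cldn9 (chromosome 17, 23682584 to 23684026) face each other across 138 bases. Cldn2 lies on chromosome X (139800828 to 139811386), Cldn1 on chromosome 16 (26356642 to 26371841) and Cldn12 on chromosome 5 (5489537 to 5514958), all by GENCODE M21 on GRCm38. Their longest coding sequences ran from 630 bases (Cldn4) to 732 bases (Cldn12), in a single coding exon except in Cldn1, Cldn7 and Cldn15. Over the 45 pairs, aligned coding bases were 58.1% to 75.9% identical, with Cldn6 and Cldn9 the most alike and Cldn3 and Cldn4 next at 73.1%. All 10 claudins had whole expected counts in all 4 libraries, within 0.005 of an integer, so RSEM's estimates assigned no fraction of a read to any of them.

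The libraries held 19513567 to 19615440 expected counts, and Setdb1 itself had 1003 and 1160 control counts against 215 and 168 with the knockdown. TPM, used below for levels, is a value per transcript length scaled to the same total in every library. Hepatocyte markers were partly present: Alb (429 and 432 TPM in the controls, 856 and 732 TPM with the knockdown) was higher with the knockdown, as was Fgb, while Apob (21.2 and 20.0 TPM against 13.7 and 10.2 TPM) and Hnf4a were lower, by the edgeR test over all genes. Afp and Trf were abundant and did not pass, and Ttr and Apoa1 had at most 7 counts in any library. Leukocyte markers summed to 0.07 to 0.25 TPM and endothelial markers to 0.18 to 0.89 TPM, and the endothelial claudin Cldn5 was at 0 in all 4 libraries. Bile duct markers summed to 399 and 438 TPM in the controls and 302 and 278 TPM with the knockdown, most of it Spp1. Of these markers, 5 of 6 reached 10 counts in some library. By edgeR Spp1 was lower (log2 fold change -0.57, adjusted p = 0.0392) and Epcam higher (1.06, adjusted p = 0.0101). Krt7 leaned higher and Sox9 lower without passing, and Cftr was not tested. Krt19 did not pass either, with 3 and 4 counts in the controls and 13 and 11 with the knockdown. It met the filter on low counts only through the knockdown libraries, so its direction is not read as a result. Fibroblast and stellate cell markers summed to 1230 to 1377 TPM, nearly all from Dcn, while Lrat was at 0. Of that list Col1a1 was called higher by edgeR (log2 fold change 2.17, adjusted p = 0.0066), while Dcn and Pdgfra did not pass. Intestinal markers summed to 78.1 to 108 TPM, mostly Vil1, with Cdx1 and Cdx2 at 0. Among them Lgr5 was called higher by edgeR (log2 fold change 0.99, adjusted p = 0.0033), while Vil1 did not pass. Some of these marker genes differ between the groups, and their part in the claudin values was not tested. In bulk RNA, fewer cells that express a gene and less RNA per cell cannot be told apart.

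Cldn3, Cldn4 and Cldn12 made up nearly all claudin RNA in both groups. Together they held 96.4% ± 0.666 of the summed claudin TPM in the controls and 96.3% ± 0.337 with the knockdown (SD, n = 2 per group). The summed claudin level was 226 and 200 TPM in the controls against 233 and 265 TPM with the knockdown, so the groups did not overlap but lay close. In the controls the order of mean TPM was Cldn3, Cldn4, Cldn12, Cldn2, Cldn1 and Cldn15, and libraries of neighbouring genes in it did not overlap, although Cldn4 (from 41.9 TPM) and Cldn12 (up to 38.2 TPM) lay closer than the SD of either, and so did Cldn2 (from 3.32 TPM) and Cldn1 (up to 3.04 TPM). From Cldn15 down, each gene's values overlapped those of the next, Cldn7, Cldn9 and Cldn6, and Cldn14 was last at 0. In the knockdown libraries Cldn1 stood before Cldn2, and the other places down to Cldn15 were the same.

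**Figure D1:**
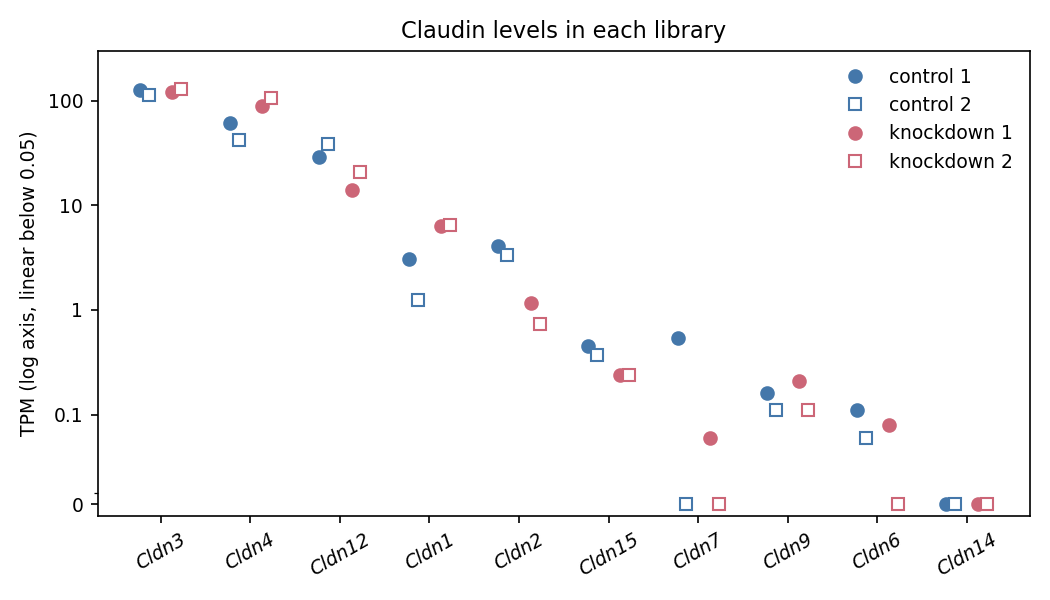
TPM of the 10 claudins (log axis, linear below 0.05) in each of the 4 libraries, controls in blue and knockdown in red, replicate 1 filled and replicate 2 open. Cldn3 lies at 114 to 130 TPM in all libraries, Cldn1 and Cldn2 change places between the groups, and Cldn14 is at 0 throughout.

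Of the 10 claudins, 5 passed the filter on low counts and were tested in the fit over 12821 genes. Cldn1 and Cldn4 were higher and Cldn2 and Cldn12 lower at an adjusted p under 0.05, while Cldn3 did not pass. That is 4 of 5 tested, where 5.71% of all tested genes were called (4.03% higher and 1.68% lower), and since the list was made with this contrast known nothing is read from the difference. The same 4 were those whose groups did not overlap, as in 51.6% of all tested genes. Their adjusted p-values, from 0.00610 to 0.0272, all exceeded 0.05 when the filter was left off (0.0773 to 0.211), and on log2(TPM + 1) with limma only Cldn2 passed.

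Among the sealing claudins, Cldn3 was the most abundant, and it was the one tested claudin that did not pass. It stood at 126 and 114 TPM in the controls and at 121 and 130 TPM with the knockdown, from 1961, 1749, 1933 and 2057 counts. The groups overlapped. In the fit over all genes its log2 fold change was 0.12 with an SE of 0.138 (edgeR adjusted p = 0.690), and a 95% interval of the ratio from 0.874 to 1.34. An antisense gene, Wbscr25, overlaps Cldn3 and had 1 count in control 2 and 0 in the other libraries, and whether the counting used strand is not stated.

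Cldn1, which seals the epidermal barrier and bile canaliculi, rose. It had 141 and 57 counts in the controls and 303 and 311 with the knockdown, or 3.04, 1.24, 6.34 and 6.53 TPM. Both knockdown libraries were above both controls, and the controls differed from each other by more than the knockdown libraries did. By edgeR it changed by 1.64 on the log2 scale (SE 0.349, adjusted p = 0.0263), a ratio of 3.12 with a 95% interval from 1.81 to 5.37. The size rests on which control is used, since it was 2.45 on the log2 scale without control 1 and 1.12 without control 2. On log2(TPM + 1) the adjusted p was 0.0740.

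Cldn4, a claudin of many simple and glandular epithelia, rose as well. The controls had 1494 and 1001 counts (61.8 and 41.9 TPM) and the knockdown libraries 2209 and 2611 (88.9 and 105 TPM). All values with the knockdown lay above those of the controls. By edgeR the difference was 0.96 on the log2 scale (SE 0.199, adjusted p = 0.0238), a ratio of 1.94 with an interval from 1.43 to 2.65, and the adjusted p on log2(TPM + 1) was 0.0683. Its size also depended on the control used, at 1.29 on the log2 scale without control 1 and 0.69 without control 2. Set against its neighbour, Cldn4 stood at 0.489 and 0.369 of the Cldn3 level in TPM in the controls and at 0.733 and 0.814 of it with the knockdown. These ratios did not overlap between the groups, and they were given no p, since the smallest that exact permutation of 4 libraries allows is 0.333.

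Cldn2, the cation and water pore, showed the largest log2 fold change of the 5 tested claudins with all 4 libraries in edgeR, while that of Cldn1 was larger in size without control 1, without knockdown 2 and on log2(TPM + 1). It fell from 175 and 141 counts in the controls to 52 and 33 with the knockdown, and from 4.05 and 3.32 TPM to 1.17 and 0.740 TPM. Every control value was more than 2 times every knockdown value. By edgeR the difference was -1.88 on the log2 scale (SE 0.288, adjusted p = 0.00610), or 27.1% of the control level, with an interval from 17.3% to 42.5%. It was called in all 4 fits that left out 1 library and in both limma fits on TPM. The TPM of Cldn1 over that of Cldn2 was 0.751 and 0.374 in the controls and 5.42 and 8.82 with the knockdown.

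Cldn12, an unusual claudin that lacks the C-terminal motif by which most claudins bind ZO proteins, fell. It had 1409 and 1493 counts in the controls and 742 and 966 with the knockdown. The edgeR estimate was -0.75 on the log2 scale (SE 0.162, adjusted p = 0.0272), or 59.4% of the control level, with an interval from 46.2% to 76.4%. The call ended without knockdown 1 (adjusted p = 0.0808) and on log2(TPM + 1) (adjusted p = 0.0958). In TPM the values were 28.7 and 38.2 in the controls and 14.0 and 20.7 with the knockdown, a wider spread within each group than in counts. Cldn12 has 8 annotated transcripts, and its mean transcript length, weighted by RSEM's estimate of each transcript, was 3418 and 2812 bases in the controls and 3580 and 3185 bases with the knockdown. Those lengths overlapped between the groups. TPM divides by an effective length, which RSEM derives from the same transcript estimates.

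**Figure D2:**
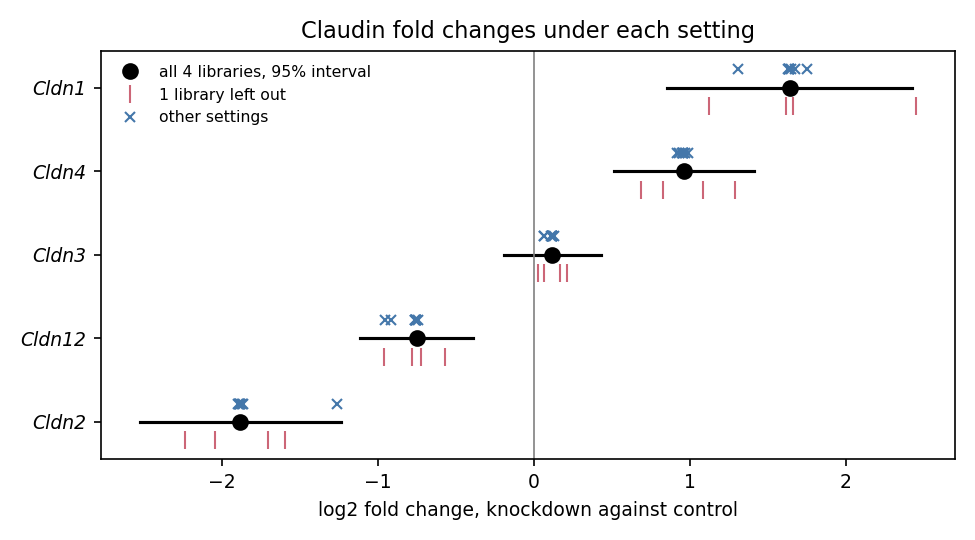
Log2 fold changes of the 5 tested claudins (x axis, knockdown against control), with the estimate from all 4 libraries and its 95% interval in black, fits without 1 library as red ticks and other settings as blue crosses. Each gene keeps its side of 0 in every fit shown, Cldn1 spreads from 1.12 to 2.45 and Cldn3 stays between 0.02 and 0.21.

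As shares of claudin RNA, the 2 most abundant genes lay closer together in the knockdown libraries. Cldn3 held 55.9% and 56.8% of summed claudin TPM in the controls and 52.0% and 48.9% with the knockdown. Cldn4 held 27.3% and 21.0% against 38.1% and 39.8%. Cldn12 held 12.7% and 19.1% against 5.99% and 7.83%. Cldn2 went from 1.79% and 1.66% to 0.501% and 0.28%, and Cldn1 from 1.34% and 0.620% to 2.72% and 2.47%. For each of these 5 genes the shares of the groups did not overlap. The shares of 1 library sum to 100%, so a larger share of one gene lowers the shares of the others.

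**Figure D3:**
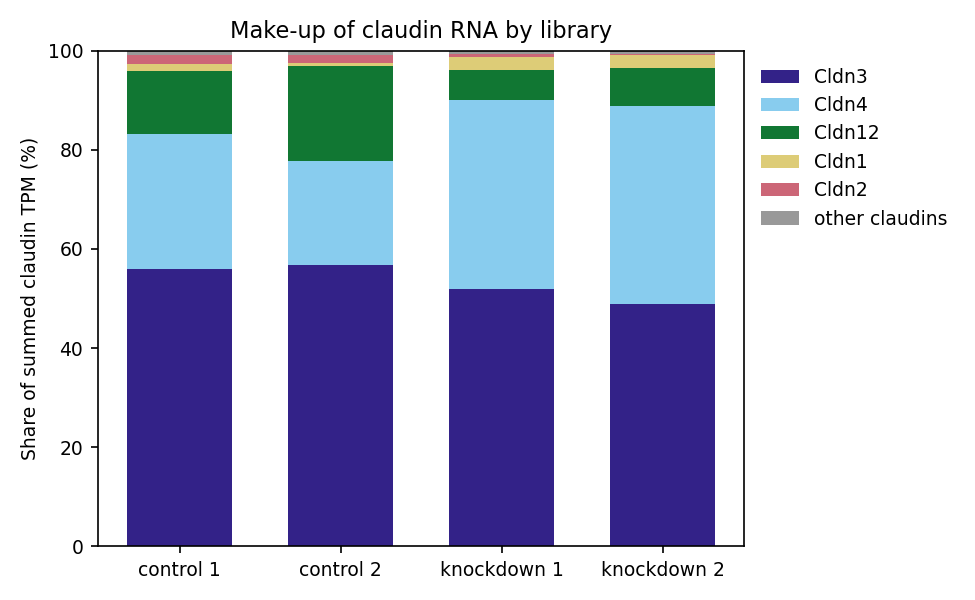
Stacked bars of each gene's share of the summed TPM of all claudin rows (y axis, percent) in the 4 libraries. Cldn4 takes 21.0% and 27.3% in the controls and 38.1% and 39.8% with the knockdown, while the shares of Cldn12 and Cldn2 are smaller with the knockdown.

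The other 5 claudins had too few counts to test. Cldn15, a cation pore of the intestine, had 11, 9, 6 and 6 counts in control 1, control 2, knockdown 1 and knockdown 2. The ratio of its summed counts was 0.599 with an exact 95% binomial interval from 0.267 to 1.29, which covers counting error only. Cldn9, known from the inner ear, had 3, 2, 4 and 2 counts (ratio 1.20, 0.305 to 4.96). Cldn6, a claudin of embryonic epithelia and some tumours, had 2, 1, 1 and 0 counts (ratio 0.333, 0.00634 to 4.14). Cldn7, found in many epithelia, had 1, 0, 1 and 0 counts (ratio 0.998, 0.0127 to 78.4), and the single counts gave 0.54 TPM in control 1 and 0.06 TPM in knockdown 1 with mean transcript lengths of 373 and 1335 bases. Cldn14, a sealing claudin of liver, kidney and inner ear, had 0 counts in all libraries, which allows up to 3 counts or 0.153 to 0.154 CPM (counts scaled to library size) in each. No difference in these 5 was detectable at this depth.

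Of the 25 claudin rows outside the list, 20 had no count in any library. Cldn23 had 8, 12, 15 and 12 counts and Cldn18 had 11, 5, 6 and 15, and both were tested and did not pass (edgeR adjusted p = 0.653 and 0.772). Cldn34b1 had 4, 7, 3 and 6 counts, and Cldn10 and Cldn19 had a single count each.

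Other genes that act with claudins were read from lists in the same fit. Among 29 other membrane and scaffold genes of the tight junction, 21 were tested, of which 1 rose and 0 fell while 20 did not pass, where 4.03% of all tested genes were called higher and 1.68% lower. The list had a median log2 fold change of 0.00 against -0.01 over all tested genes. The riser was Crb3, an apical polarity protein, with 397 and 340 counts in the controls and 591 and 645 with the knockdown (log2 fold change 0.76, SE 0.168, edgeR adjusted p = 0.0319). Its adjusted p was 0.0748 once control 2 was left out and 0.0903 once knockdown 2 was. Tjp1, the scaffold ZO-1, had 4545 and 5079 counts in the controls against 4160 and 3161 with the knockdown, a log2 fold change of -0.38 (edgeR adjusted p = 0.205). Its knockdown counts were below both control counts, and in CPM the same held for 25.2% of all tested genes. Among the 21 tested genes of the list, the groups did not overlap in 5 that were higher and 5 that were lower. Over all tested genes 26.4% were higher and 25.2% lower in this way, close to the shares in the list, so nothing is read from these counts. Occludin (Ocln), the other well known strand protein, had 2, 4, 2 and 4 counts, and Tjp3 (ZO-3) had 1 count in control 2 and none in the other libraries.

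Genes that bind, cut or turn over claudins included 2 called higher, 0 lower and 8 others of 10 tested (median 0.32), beside 4.03% higher and 1.68% lower over all tested genes. Epcam, an adhesion molecule that binds and stabilises claudins and is also a bile duct marker, had 257 and 214 counts in the controls and 489 and 487 with the knockdown (log2 fold change 1.06, SE 0.181, edgeR adjusted p = 0.0101). Prss8, the membrane protease prostasin, had 2 counts in each control and 16 and 15 with the knockdown. It passed the filter on low counts only through the knockdown libraries, so it had to differ, and its call is not read as a result. In 8 of the 10, Prss8 among them, both knockdown libraries were above both controls, which held for 26.4% of all tested genes. The list was chosen with earlier results of these data known, so nothing is read from the difference between those shares.

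Of 6 tested genes with the claudin fold but other roles, 1 rose, 0 fell and 5 did not pass (median 0.25), against 5.71% called over all tested genes. Pmp22, a membrane protein of myelin and epithelia, had 63 and 90 counts in the controls and 248 and 216 with the knockdown (log2 fold change 1.61, SE 0.241, edgeR adjusted p = 0.00552). Among 19 tested transcription factors known at claudin genes, 0 rose, 1 fell and 18 did not pass (median 0.17), a share close to the 5.71% called over all. The one that fell was Hnf4a, the hepatocyte nuclear receptor, from 4501 and 4635 counts to 3202 and 2796 (edgeR estimate -0.60 on the log2 scale, SE 0.136, adjusted p = 0.0346). Without knockdown 2 its adjusted p was 0.179. Of 5 tested transporters of the bile canaliculus, 1 rose, 0 fell and 4 did not pass (median 0.10), again beside 5.71% over all. Atp8b1, a phospholipid flippase of the canalicular membrane, had 38 and 49 counts in the controls and 143 and 136 with the knockdown (log2 fold change 1.69, SE 0.254, edgeR adjusted p = 0.00559). With limma on log2(TPM + 1) its adjusted p was 0.0521.

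**Figure D4:**
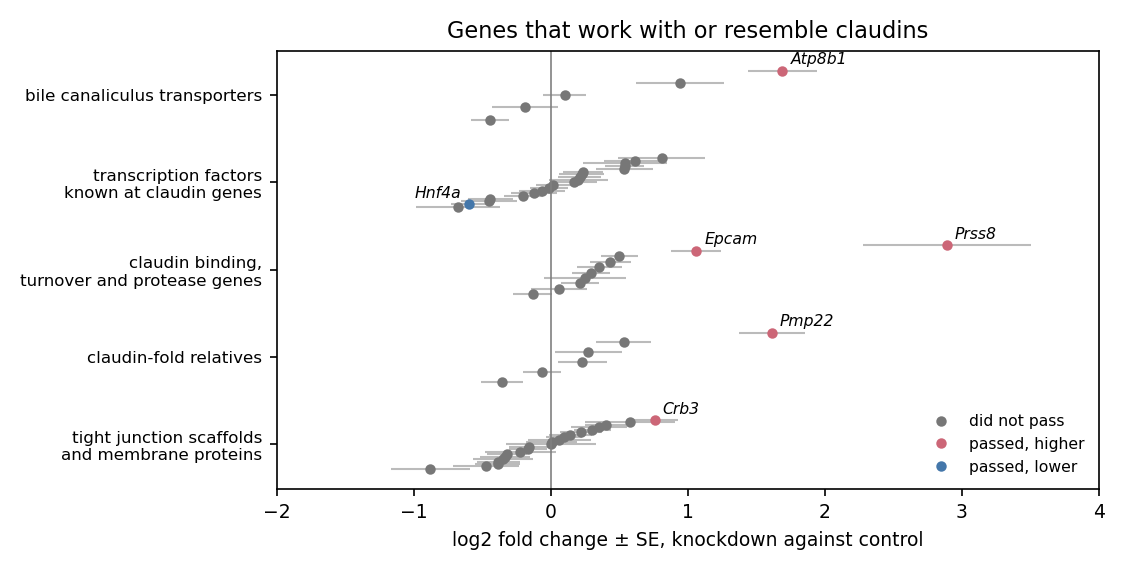
Log2 fold change ± SE (x axis) of the tested genes in 5 lists of genes that act with or resemble claudins, with genes that passed in red (higher) or blue (lower) and named. Points of the tight junction scaffolds lie on both sides of 0, and 5 genes in all passed as higher, Prss8 with 2 counts in each control among them, and 1 as lower.

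Profiles over the 4 libraries were compared among genes whose mean reached 5 CPM, as the root mean square difference of log2 CPM after each gene's mean was taken off. The 3 of 9520 genes most like Cldn2 were Apoc2, at a difference of 0.117, Col4a1 at 0.172 and Cd274 at 0.227. Those most like Cldn3 were Nkiras2 (0.00830), Ptpn21 (0.00903) and Ube2l3 (0.00931). With 4 points that share their libraries, many genes can lie close to a nearly level profile such as that of Cldn3. Cldn2 was taken for its largest change, and Apoc2, Col4a1 and Cd274 had edgeR log2 fold changes of -1.82, -1.58 and -1.57. Their likeness to Cldn2 therefore includes a fall of similar size, and shared regulation was not tested.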

How the data were processed

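Per the labels' protocols, total RNA was made into libraries with a directional NEBNext kit. The submitters' processing notes name the tools FastQC, STAR, RSEM, DESeq2 and the builds mm10 and GRCm38. The sources used here give neither the annotation release nor the strand setting of the counting. The deposited expected counts are RSEM's estimated reads per gene, and the deposited TPM values are divided by effective length. The deposited lengths, per the file headers, give each gene's mean transcript length per library. Groups come from the sample titles.

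Expected counts were rounded. Library sizes were sums over all 115821 rows, of which 54838 are genes and 60983 loci named by position. Genes were tested with edgeR 4.0.16 (R 4.3.3, quasi-likelihood F-test, TMM, filterByExpr, group alone), with Benjamini-Hochberg adjustment over 12821 genes, a threshold of 0.05 and 2 residual degrees of freedom. SEs come from the F statistic. No p was adjusted over the claudins alone and no set test was run. The fit was tested on simulated data. Alternatives used DESeq2 1.42.0, limma 3.58.1 on TPM, other filters, scaling and rows, each library left out, and the replicate block. The claudins and gene lists were chosen with earlier results of these data known. Genes named from the lists are those called, plus Tjp1, Tjp3 and Ocln, and some genes are not reported here. Of the gene rows, 54809 matched GENCODE M21. Promoters are RefSeq's (GRCm38.p6). Counting intervals are exact (Clopper-Pearson).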

Additional observations from a re-analysis of the deposited data

How the results depend on the processing

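The signs of the log2 fold changes of Cldn1, Cldn2, Cldn3, Cldn4 and Cldn12 were the same in all 12 alternatives. Cldn2 passed in 11 of 12, Cldn1 and Cldn4 in 9, Cldn12 in 8 and Cldn3 in 0. Without a filter 98 genes were called higher and 9 lower of all genes (517 and 215 with it), with 0 and 0 claudins (2 and 2 with it) and 0 and 0 genes of the lists (5 and 1 with it). That unfiltered edgeR fit gave 2787 genes an unadjusted p under 0.05. DESeq2 on the filtered genes called all 4 claudins, and it called 2 list genes lower. On log2(TPM + 1) 245 genes were higher and 89 lower, with 0 claudins higher, 1 lower and 3 list genes higher. On log2(TPM + 0.1) the numbers were 242 and 85, with 0 claudins higher and 1 lower. Leaving out 1 library gave 516 to 873 higher and 188 to 596 lower genes, 1 to 2 claudins lower, and 4 to 10 list genes higher and 0 to 5 lower. The highest numbers over all genes (873 and 596) came without control 1, and without knockdown 1 454 were lower, and Cldn12 was the claudin lost, without knockdown 1. The cause of these differences was not tested.

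The replicate numbers are not tied to cultures or days. The same-numbered libraries deviated, on balance, in opposite directions (correlation -0.248 over 9913 genes). With the replicate block 2 list genes were lower, and the 4 claudin calls stood (Cldn1 1.75, Cldn2 -1.90, Cldn4 0.98, Cldn12 -0.76 on the log2 scale). A crossed pairing, added after the data were seen, called 1300 genes higher and 949 lower, and 12 and 8 list genes.

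The 5 untested claudins had at most 11 counts in any library, which limits them to the counting intervals given above.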

Other observations

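Genes within 100 kb of the listed claudins were read from the same fit. One of those called was Morc4, which lies 10246 bases from Cldn2 on the opposite strand (20.3 ± 2.89 CPM in the controls and 10.8 ± 2.75 CPM with the knockdown, SD, n = 2), with an edgeR estimate of -0.91 on the log2 scale (SE 0.223, adjusted p = 0.0459). Mettl27, 2482 bases from Cldn4 and 43577 from Cldn3, had a log2 fold change of -0.45 (edgeR adjusted p = 0.262). No single locus named by position within 100 kb of a listed claudin had more than 2 counts in a library.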
